A study of Mus musculus with 9 samples.

Results

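The transcripts of C1498 mouse leukaemia cells carrying 1 hairpin against Zeb1, called sequence C, were compared with those of the same cells carrying a negative control construct. Of the 9 arrays in the series, 6 belong to this comparison. The group shZeb1_C holds arrays 10, 11 and 12, titled ZEB C, and the group Scr holds arrays 7, 8 and 9, titled SCR. Every probe set with 1 gene symbol was used, 19572 of 22206. The other 3 arrays, 13, 14 and 15, carry the hairpin with sequence D (shZeb1_D). They enter the fit only to share 1 estimate of the spread, and their values are given beside those of shZeb1_C for some genes. All groups, the control included, were infected overnight with lentivirus that also carries GFP, and GFP+ cells were collected 2 weeks later, so each group is a sorted, infected population and none was left uninfected. The labels leave unsaid if a group's 3 arrays stand for 3 infections or for 1, so each p-value reflects the variation among these arrays only, and that may be technical variation.

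Zeb1 is a zinc-finger transcription factor that binds E-box sequences in promoters and recruits corepressors to them. It is best known for silencing epithelial genes such as Cdh1 during epithelial-mesenchymal transition, and in lymphocytes it is also needed for normal T cell development. C1498 is a transplantable line from a C57BL/6 mouse that is used as a model of acute myeloid leukaemia. A short hairpin RNA acts on the mRNA of its target, so the level of the target is the first check of the labels. Levels are given as log2 RMA signal, a log2 step of 1 being a doubling, and differences as shZeb1_C minus Scr with the standard error. A gene was called when its adjusted p in limma was under 0.05.

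Zeb1 mRNA differed little between the arrays labelled shZeb1_C and the control. Zeb1 read 10.52, 10.29 and 10.56 in Scr and 10.41, 10.01 and 10.34 in shZeb1_C, and the groups overlapped. Its mean signal was 86.9% of the control's, equal to -0.20 ± 0.16 on the log2 scale (limma adjusted p = 0.895, unadjusted p = 0.246), which is no call. A two-sided exact permutation test over the 6 arrays gave p = 0.3, where 0.1 is the smallest p that 20 labellings allow. In shZeb1_D the same probe set read 9.56, 9.26 and 9.40, below every Scr and shZeb1_C array. There shZeb1_D minus Scr, at -1.05 ± 0.16, was called (limma adjusted p = 0.0263), while shZeb1_D minus shZeb1_C, at -0.85 ± 0.16, was not (limma adjusted p = 0.056). Leaving out any of the 9 arrays kept the change of Zeb1 in shZeb1_C between -0.29 and -0.08. The target therefore gives no check of the shZeb1_C label at the mRNA level, and the directions below are those of the arrays so labelled.

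Chains of the T cell receptor complex were well expressed in both groups, while most myeloid markers were low. Ptprc, the pan-leukocyte antigen CD45, averaged 14.87 in Scr and 14.93 in shZeb1_C. Cd3g and Cd3e, chains of the T cell receptor complex, averaged 15.53 and 14.65 in Scr against 15.56 and 14.92 in shZeb1_C. Cd3d, another chain, averaged 12.21 in Scr and 11.27 in shZeb1_C. The T cell markers Cd4 and Cd8a were far lower, at 7.89 and 6.32 in Scr and 8.16 and 6.41 in shZeb1_C. The myeloid markers Itgam, Csf1r, Spi1 and Lyz2 averaged 5.24 to 6.59 in Scr, below the median level of all probe sets (7.10), and Mpo lay just above it at 7.61. Of 5 myeloid, 5 T cell, 3 B cell, 3 fibroblast and 3 endothelial markers measured, none was called in shZeb1_C, and the summed level of the 5 T cell markers was 56.2 to 56.9 in Scr and 55.5 to 57.6 in shZeb1_C. Of the 4 NK cell markers, Nkg7 was called, and their summed level was at most 29.2 in Scr and 34.2 to 38.8 in shZeb1_C. Ncr1, the receptor NKp46 that defines NK cells, stayed far below the median level, at 4.59 to 4.83 in Scr and 4.75 to 4.80 in shZeb1_C. On bulk arrays a change in the share of cells of a type and a change in RNA per cell cannot be told apart.

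The 3 shZeb1_C arrays were not equally alike. Arrays 10 and 11 correlated with each other at 0.995 (Pearson's r across probe sets), and array 12 correlated with them at 0.9791 and 0.978. Arrays 10 and 11 correlated with the Scr arrays at 0.9779 to 0.9892. Array 12 correlated with Scr replicates 7, 8 and 9 at 0.9693, 0.9788 and 0.9679, so its value with Scr replicate 8 was above that with array 11. Scr replicate 8 also stood apart in its group, at 0.9843 and 0.9865 with Scr replicates 7 and 9, which correlated at 0.9942 with each other. Array medians ran from 7.02 to 7.16. Array 12 lay farthest from Scr in 78 of the 129 genes called higher, and in 22 of the 56 called lower. Where the value of each array is printed, the third of the shZeb1_C values is that of array 12.

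In all, 185 of 19572 probe sets were called (0.945%), 129 higher in shZeb1_C (0.659%) and 56 lower (0.286%). Rises were large: 120 were at least 2-fold, 61 at least 4-fold and 14 at least 16-fold, with a median log2 fold change of 1.95 and a highest of 6.24. Of the 129, 36 had a Scr mean below the median level, so these were dim in the control. Falls were smaller, with a median of -1.43, 49 at least 2-fold and 9 at least 4-fold, and 1 of the 56 was dim in Scr. Among the 9786 probe sets above the median level, 161 were called (1.65%). An unadjusted p under 0.05 in limma was reached by 1717 of the 19572 probe sets. The counts at that limit given below for gene lists are to be read beside this share. For all 185 calls the 3 shZeb1_C arrays lay beyond the 3 Scr arrays, which held for 14.2% of all probe sets, 7.5% above and 6.74% below.

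**Figure D1:**
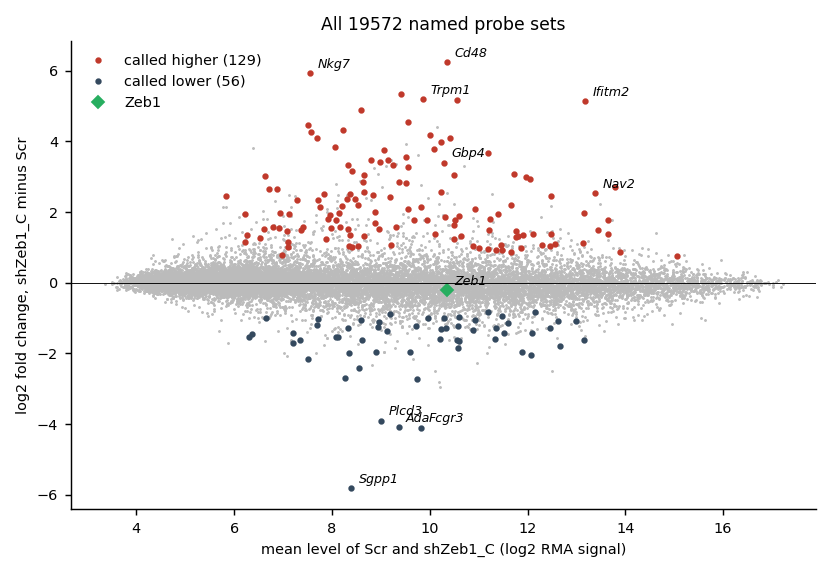
Each point is 1 of the 19572 named probe sets, with the mean level of Scr and shZeb1_C (log2 RMA signal) on the horizontal axis and the log2 fold change, shZeb1_C minus Scr, on the vertical axis. The 129 genes called higher (red) reach 6.24, the 56 called lower (dark blue) reach -5.81, and Zeb1 (green) lies at -0.20.

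The number of calls depended on single arrays. Of the 185 calls, 39 held whichever of the 9 arrays was left out, 29 higher and 10 lower, and none changed sign. The count was 104, 84 and 43 without Scr replicates 7, 8 and 9, and 103, 92 and 144 without shZeb1_C replicates 10, 11 and 12. It was 214, 156 and 117 without shZeb1_D replicates 13, 14 and 15. Among the calls that held were Cd48, Gcnt2, Trpm1, Jaml, Arnt2, Abi3bp, Lcp2, Sla2, Themis, Gbp3, Gbp4, Gbp7, Ddx58, Abcb1a and Tnfrsf1a for rises and Sgpp1, Fcgr3, Ada, Plcd3, Spock2, Tnfrsf19, Aass, Marveld1, Gphn and Fam122a for falls.

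Promoter sequences are shown for genes of both directions because the called genes include many that interferon induces and because Zeb1 itself binds E-boxes. They are the 300 bases from 250 before to 50 after a gene's start in RefSeq (assembly GRCm38.p6), and 103 of the genes called higher matched with 139 promoters, 48 of those called lower with 77, and all genes tested with 19143. The core of the interferon-stimulated response element, GAAANNGAAA on either strand, was found in 15 of 139 promoters of genes called higher (10.8%, exact 95% interval 6.2 to 17.2), in 2 of 77 of genes called lower (2.6%, 0.3 to 9.1) and in 642 of all 19143 (3.4%). Several of these promoters belong to the same gene or family, so they are not independent of each other. The following 6, of genes called higher, carry it, and capitals mark the matching bases, which read as the reverse complement where the match is on the other strand.
Gbp3 promoter, chr3:142559794-142560093, plus strand: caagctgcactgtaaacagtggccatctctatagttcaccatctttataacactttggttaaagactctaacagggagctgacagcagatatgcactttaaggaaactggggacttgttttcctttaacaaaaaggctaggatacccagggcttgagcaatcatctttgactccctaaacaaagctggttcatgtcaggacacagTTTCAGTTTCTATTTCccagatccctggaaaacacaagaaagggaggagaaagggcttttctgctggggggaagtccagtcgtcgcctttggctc
Gbp7 promoter, chr3:142530086-142530385, plus strand: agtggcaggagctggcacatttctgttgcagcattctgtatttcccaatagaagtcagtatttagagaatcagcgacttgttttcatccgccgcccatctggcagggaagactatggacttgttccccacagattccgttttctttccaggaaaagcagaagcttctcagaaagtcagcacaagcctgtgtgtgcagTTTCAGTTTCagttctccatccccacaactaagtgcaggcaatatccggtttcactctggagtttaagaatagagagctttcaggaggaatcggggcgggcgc
Ddx58 promoter, chr4:40239776-40240075, minus strand: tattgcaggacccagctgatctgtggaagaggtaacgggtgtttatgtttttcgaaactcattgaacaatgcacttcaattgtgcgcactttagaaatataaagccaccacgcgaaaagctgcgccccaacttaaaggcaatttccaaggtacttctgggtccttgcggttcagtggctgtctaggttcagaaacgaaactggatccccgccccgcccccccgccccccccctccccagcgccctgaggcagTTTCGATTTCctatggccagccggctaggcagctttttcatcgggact
Lgals9 promoter, chr11:78984875-78985174, minus strand: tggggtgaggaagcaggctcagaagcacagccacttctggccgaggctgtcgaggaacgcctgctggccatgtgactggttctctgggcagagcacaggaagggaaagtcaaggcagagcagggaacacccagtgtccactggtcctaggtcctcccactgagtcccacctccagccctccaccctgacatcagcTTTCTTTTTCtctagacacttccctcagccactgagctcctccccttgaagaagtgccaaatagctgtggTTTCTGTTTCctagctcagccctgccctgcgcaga
Ifitm2 promoter, chr7:140955912-140956211, minus strand: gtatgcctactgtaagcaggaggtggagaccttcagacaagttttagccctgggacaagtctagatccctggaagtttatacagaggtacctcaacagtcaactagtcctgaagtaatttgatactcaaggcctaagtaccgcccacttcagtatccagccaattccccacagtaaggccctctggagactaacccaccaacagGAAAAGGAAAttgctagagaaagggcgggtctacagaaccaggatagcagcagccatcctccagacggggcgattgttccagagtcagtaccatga
Jaml promoter, chr9:45078933-45079232, plus strand: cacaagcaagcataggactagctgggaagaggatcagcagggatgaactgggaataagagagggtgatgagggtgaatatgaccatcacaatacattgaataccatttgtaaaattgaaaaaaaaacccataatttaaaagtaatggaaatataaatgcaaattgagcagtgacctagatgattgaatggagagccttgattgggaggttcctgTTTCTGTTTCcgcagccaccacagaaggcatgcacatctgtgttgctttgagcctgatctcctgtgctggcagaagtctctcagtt
In Gbp3 the 2 matches overlap and begin 45 and 39 bases before the start, in Gbp7 the match begins 53 before, in Ifitm2 46 before and in Jaml 36 before. Lgals9 has 1 match 55 before the start and 1 beginning 15 after it, and in Ddx58 it begins 2 after.

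The E-box CACCTG was searched on both strands in the same way. It stood in 18 of 139 promoters of genes called higher (12.9%, exact 95% interval 7.9 to 19.7), in 12 of 77 of genes called lower (15.6%, 8.3 to 25.6) and in 3768 of all 19143 (19.7%). These shares are descriptions, and a match is not a bound site. The STAT-binding GAS element TTCNNNGAA stood in 10.8%, 6.5% and 7.8% of the same 3 sets. The shares move with the window: in the 150 bases nearest the start the E-box stood in 5.8%, 7.8% and 9.9%, the GAS element in 2.2%, 5.2% and 3.5%, and the interferon-response core in 9.4%, 1.3% and 1.4%. The promoters below show the E-box in a gene called higher, Arnt2, and in a pair called lower, Tnfrsf19 and Ap1m2, with the E-boxes in capitals.
Arnt2 promoter, chr7:84409989-84410288, minus strand: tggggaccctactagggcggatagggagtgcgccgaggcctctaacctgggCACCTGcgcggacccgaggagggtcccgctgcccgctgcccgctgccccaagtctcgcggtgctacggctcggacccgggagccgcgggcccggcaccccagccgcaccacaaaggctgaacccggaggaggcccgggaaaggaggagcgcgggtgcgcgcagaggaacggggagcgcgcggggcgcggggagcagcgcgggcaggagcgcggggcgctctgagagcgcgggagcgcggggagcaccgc
Tnfrsf19 promoter, chr14:61046806-61047105, minus strand: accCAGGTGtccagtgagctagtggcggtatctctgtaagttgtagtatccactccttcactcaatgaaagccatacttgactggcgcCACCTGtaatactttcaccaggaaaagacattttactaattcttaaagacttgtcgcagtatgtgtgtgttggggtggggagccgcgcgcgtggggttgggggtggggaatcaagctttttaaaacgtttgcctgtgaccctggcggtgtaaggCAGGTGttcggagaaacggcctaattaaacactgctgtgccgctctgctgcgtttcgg
Ap1m2 promoter, chr9:21312284-21312583, minus strand: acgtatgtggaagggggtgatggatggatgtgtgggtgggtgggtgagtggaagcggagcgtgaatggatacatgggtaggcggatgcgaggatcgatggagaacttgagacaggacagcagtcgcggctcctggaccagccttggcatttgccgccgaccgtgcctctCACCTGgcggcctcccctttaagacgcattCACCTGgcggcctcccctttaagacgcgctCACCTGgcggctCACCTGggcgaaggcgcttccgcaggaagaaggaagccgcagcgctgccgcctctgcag
Ap1m2, an epithelial sorting adaptor with 4 E-boxes beginning 81, 51, 21 and 9 bases before its start, was called lower in shZeb1_C. Tnfrsf19, with 3 in the promoter shown and 0 in its other promoter, was lower too. Arnt2, with 1 beginning 199 before its start, was among the largest rises.

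The gene lists and their members were chosen with earlier results of these data known, so the shares called, here and below, may be partly built in. Interferon-inducible GTPases and membrane proteins were the list with the largest share of called members. Of 25 measured, 8 rose and none fell (32.0% called, against 0.945% of all probe sets), with a median log2 fold change of 0.79 against 0.00 over all probe sets. Guanylate-binding proteins, GTPases that attack the membranes of vacuoles holding microbes, made up 6 of the 8. Gbp4 read 8.52, 8.32 and 8.97 in Scr and 11.72, 12.02 and 12.24 in shZeb1_C, a rise of 3.39 ± 0.20 (limma adjusted p = 2.0e-04). All 3 shZeb1_C arrays lay well above all 3 of Scr, and array 12 was close to the other arrays. Gbp7, whose promoter is shown above, went from 7.81, 7.90 and 7.90 to 10.01, 9.68 and 9.93 (2.00 ± 0.18, limma adjusted p = 0.00144), and Gbp3 from 6.19, 6.03 and 6.24 to 8.14, 7.99 and 8.16 (1.94 ± 0.20, limma adjusted p = 0.0031). Gbp8 rose by 2.57, with array 12 at 12.80 against 10.88 and 10.84, and Gbp9 and Gbp2 by 1.97 and 1.16. These genes are close paralogs, so probes of one may in part read another.

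The other members of that list were more variable. Ifitm2, a membrane protein that restricts virus entry, read 11.53, 9.35 and 10.96 in Scr and 16.12, 15.34 and 15.77 in shZeb1_C (5.13 ± 0.86, limma adjusted p = 0.0304). Its Scr arrays spread over more than 2 log2 units but stayed below every shZeb1_C array, and the call was lost without any one of the 6 arrays (highest limma adjusted p = 0.112). Mndal, a DNA-binding protein of the Ifi200 family, rose by 3.66 ± 0.60 (limma adjusted p = 0.0281), and its relative Ifi204 was 1.38 ± 0.39 higher without passing the test (limma adjusted p = 0.202). The list's count was 6 with a median of 0.42 without shZeb1_C replicate 12. It fell to 3 without Scr replicate 9 or shZeb1_C replicate 11 and to 4 without Scr replicate 7 or 8 or shZeb1_C replicate 10, and was 5 without shZeb1_D replicate 15. Gbp3, Gbp4 and Gbp7 held throughout.

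Of 54 classical interferon-stimulated genes measured, 5 rose and none fell (9.26%), the median was 0.23, and 42 had a log2 fold change above 0. Ddx58, the RNA sensor RIG-I, read 8.31, 8.46 and 8.79 in Scr and 10.90, 10.42 and 10.51 in shZeb1_C (2.09 ± 0.18, limma adjusted p = 0.00144). The arrays of the 2 groups did not overlap, and array 12 lay inside the range of its group. Cmpk2, a mitochondrial nucleotide kinase, rose by 2.44 ± 0.29, Ifi27 by 2.99 ± 0.49, Trim30a by 1.78 ± 0.33 and Lgals9, the lectin galectin-9, by 1.39 ± 0.18. Isg20, an RNA exonuclease, was 2.32 ± 0.48 higher (limma adjusted p = 0.0708), Sp100, a nuclear body protein, 1.33 ± 0.32 (limma adjusted p = 0.126) and Slfn5 1.16 ± 0.30 (limma adjusted p = 0.155), none of which passed. The list's median was 0.15, 0.12 and 0.40 on arrays 10, 11 and 12. Its count was 4 without array 12, 3 without array 10 or 11 or shZeb1_D replicate 15, and 1, Ddx58, without Scr replicate 9. The calls of Ifi27 and Trim30a were lost without array 12, so the 4 there include a member not called in the full fit. Chemokines and their receptors, 49 measured, had a median of 0.06 and 0 calls by limma, with 3 at an unadjusted p under 0.05.

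Of 27 MHC class I presentation genes measured, 2 rose (7.41%) and none fell, while 22 were above 0 and the median was 0.36, with 0.35, 0.36 and 0.27 on arrays 10, 11 and 12. Erap1, the peptidase that trims peptides in the endoplasmic reticulum, read 9.97, 9.73 and 9.90 in Scr and 10.96, 11.22 and 11.14 in shZeb1_C (1.24 ± 0.17, limma adjusted p = 0.0117). H2-T10, a non-classical class I molecule, rose by 1.47 ± 0.24 (limma adjusted p = 0.0293), and its neighbour H2-T22 was 1.27 ± 0.25 higher (limma adjusted p = 0.0538). B2m, the light chain shared by class I molecules, was 0.84 ± 0.33 higher (limma adjusted p = 0.469). Both calls were lost without Scr replicate 8 or 9 or shZeb1_C replicate 11, and that of H2-T10 also without each of the other Scr and shZeb1_C replicates or shZeb1_D replicate 15. The highest limma adjusted p was 0.0594 for Erap1 and 0.106 for H2-T10. Class II genes, 18 measured, had a median of 0.05 and 0 calls by limma, with 2 at an unadjusted p under 0.05.

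Of 26 cytotoxic and NK effector genes measured, 5 rose and none fell (19.2%), with a median of 0.26. Nkg7, a granule membrane protein, read 4.49, 4.32 and 4.94 in Scr and 9.11, 9.79 and 12.65 in shZeb1_C. The control arrays were dim and array 12 was the highest by nearly 3 log2 units, and the rise was 5.93 ± 0.80 (limma adjusted p = 0.0109), a fold of 61.1. Gzmb, the protease granzyme B, went from 6.41, 5.75 and 6.02 to 11.09, 8.78 and 11.31 (4.33 ± 0.59, limma adjusted p = 0.0109). Ctla2a, a cathepsin inhibitor of activated T cells, went from 6.32, 5.69 and 6.42 to 10.81, 9.59 and 12.73 (4.90 ± 0.91, limma adjusted p = 0.0471), again with array 12 the highest. Serpinb6b, a serpin, and Tnfsf10, the death ligand TRAIL, started above the median level and rose by 1.77 and 1.58. Other granule genes did not pass, among them Gzmm, granzyme M (-0.35 ± 0.26, limma adjusted p = 0.867), Unc13d, which primes granules for release (-0.41 ± 0.15, limma adjusted p = 0.435), and Srgn, the granule proteoglycan serglycin (0.20 ± 0.43, limma adjusted p = 0.998). Cst7, cystatin F of cytotoxic cells, rose by 3.06 ± 0.53 (limma adjusted p = 0.0359), though it was on no list and was chosen after its values were seen. The list's count was 0 without Scr replicate 8 or 9, where the adjusted p of Nkg7 and Gzmb reached 0.0577 and 0.0584 (limma), 2 without Scr replicate 7, shZeb1_C replicate 10 or 11 or shZeb1_D replicate 15, and 4 without array 12. Without array 12 Nkg7 and Gzmb stayed called, but the calls of Ctla2a, Serpinb6b and Tnfsf10 were lost. The 4 there thus include members not called in the full fit. Of the 4 NK cell markers, Ncr1 was dim in both groups and Klrb1c, the NK1.1 antigen, read 6.86, 4.75 and 5.14 in Scr and 7.35, 7.07 and 6.87 in shZeb1_C (1.51 ± 0.46, limma adjusted p = 0.249). The summed level of the NK cell markers given above is made of Nkg7, Ncr1, Klrb1c and Klrd1, so it moves with these genes by construction. Whether a change in the share of cells of a type plays a part in the result was not tested.

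**Figure D2:**
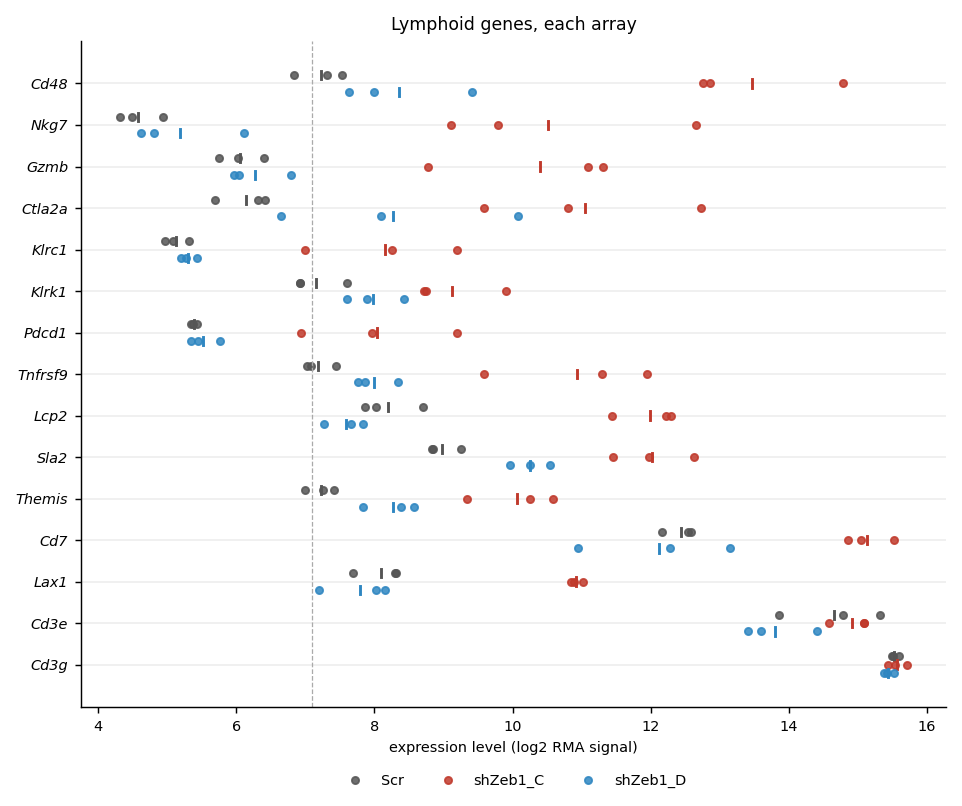
Level of 15 lymphoid genes (log2 RMA signal, horizontal axis) on each of the 9 arrays, with 1 point per array, a short bar at each group's mean and the median level of all probe sets (7.10) as a dashed line. Nkg7 stands at 4.32 to 4.94 in Scr and 9.11 to 12.65 in shZeb1_C, whereas Cd3g stands at 15.49 to 15.59 and 15.44 to 15.71.

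Of 32 NK cell receptors measured, 2 rose and none fell (6.25%), 13 had all shZeb1_C arrays above all Scr arrays (7.5% of all probe sets did), and the median was 0.42, with 0.23, 0.38 and 0.82 on arrays 10, 11 and 12. Klrc1, the inhibitory receptor NKG2A, read 5.32, 4.97 and 5.09 in Scr and 8.25, 7.00 and 9.20 in shZeb1_C (3.02 ± 0.44, limma adjusted p = 0.0157). Klrk1, the activating receptor NKG2D, rose by 1.98 ± 0.36 (limma adjusted p = 0.0432). Klrd1, CD94, the partner chain of NKG2A, was already high at 12.97, 10.38 and 10.83 in Scr and read 13.55, 12.57 and 14.55 in shZeb1_C, so that the groups overlapped (2.16 ± 0.67, limma adjusted p = 0.271). Klra7, an Ly49 receptor, was 3.30 ± 0.84 higher (limma adjusted p = 0.148), with array 12 at 14.24 against 11.25 and 11.58. The pseudogene Klra13-ps rose by 3.48 ± 0.54 (limma adjusted p = 0.0205), with array 12 at 12.33 against 10.25 and 10.08, and probes of the Ly49 cluster may share sequence. The count was 0 without Scr replicate 8 or 9 or shZeb1_C replicate 10, 1 without Scr replicate 7, shZeb1_C replicate 11 or shZeb1_D replicate 14 or 15, and 3 without array 12. Klrk1 lost its call without array 12, and Klrc1 and Klrk1 lost theirs without Scr replicate 7. The counts in those fits thus include members not called in the full fit.

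The SLAM family receptor Cd48 had the largest change of all named genes. Cd48, a GPI-anchored ligand of Cd2 and Cd244, read 7.53, 7.32 and 6.83 in Scr and 12.76, 12.86 and 14.79 in shZeb1_C, a rise of 6.24 ± 0.59 (limma adjusted p = 0.00175) and a fold of 75.8. Every shZeb1_C array was more than 5 log2 units above every Scr array, and array 12 was the highest. Cd244a, its receptor 2B4, read 6.91, 7.50 and 7.29 against 9.93, 9.22 and 12.30 without passing the test (3.25 ± 0.68, limma adjusted p = 0.0734), and Cd2 was 1.46 ± 0.32 higher (limma adjusted p = 0.0827). Of 13 family members measured, Cd48 was the only call (7.69%), a second was called without array 11 or without array 12, and 11 lay above 0, with a median of 0.32.

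In T cell receptor signalling the called genes were adaptors and regulators. Of 36 genes measured, 3 rose and none fell (8.33%), and the median was 0.21. Lcp2, the adaptor SLP-76 that links ZAP-70 to phospholipase C, read 8.71, 8.03 and 7.87 in Scr and 12.29, 11.44 and 12.22 in shZeb1_C (3.78 ± 0.30, limma adjusted p = 9.9e-04). Sla2, an adaptor that dampens receptor signalling, went from 8.84, 9.25 and 8.85 to 11.46, 11.98 and 12.62 (3.04 ± 0.29, limma adjusted p = 0.00175), and Themis, needed for thymocyte selection, from 7.42, 6.99 and 7.26 to 10.26, 9.34 and 10.58 (2.84 ± 0.32, limma adjusted p = 0.00541). In each of these the groups were far apart, and array 12 was the highest for Sla2 and Themis but not for Lcp2. Their calls held whichever array was left out, and the list had 3 or 4 called members in every such fit. Lat, the membrane scaffold, and Sla were 1.77 ± 0.41 (limma adjusted p = 0.103) and 2.51 ± 0.53 (limma adjusted p = 0.0781) higher. Cd3e and Cd3g had log2 fold changes of 0.27 ± 0.38 (limma adjusted p = 0.989) and 0.04 ± 0.13 (limma adjusted p = 0.998). Cd3d had -0.94 ± 0.43 (limma adjusted p = 0.595). Outside the lists, and chosen after their values were seen, Lax1, a membrane adaptor that restrains lymphocyte signalling, rose by 2.82 ± 0.27 (limma adjusted p = 0.00175), Lat2 by 2.48 ± 0.34 and Cd7 by 2.70 ± 0.47.

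Among checkpoint and costimulatory genes 3 of 39 rose (7.69%) and none fell, with a median of 0.09. Tnfrsf9, the costimulatory receptor 4-1BB, read 7.45, 7.09 and 7.03 in Scr and 11.30, 9.58 and 11.94 in shZeb1_C (3.75 ± 0.50, limma adjusted p = 0.0109). Pdcd1, the inhibitory receptor PD-1, was dim in every Scr array, at 5.38, 5.44 and 5.35, and read 9.19, 6.94 and 7.97 in shZeb1_C (2.64 ± 0.45, limma adjusted p = 0.033). The shZeb1_C arrays of Pdcd1 spread over more than 2 log2 units, here with array 10 the highest. The third was Lgals9, given above as an interferon-stimulated gene. Cd274, the ligand PD-L1, differed by 0.04 ± 0.30 (limma adjusted p = 0.998), and Cd47, a brake on phagocytosis, was 1.87 ± 0.60 higher without passing (limma adjusted p = 0.292). Without Scr replicate 9 none of the 3 was called, the adjusted p of Tnfrsf9 being 0.0584 (limma), and 2 were called without Scr replicate 7 or 8, shZeb1_C replicate 12 or shZeb1_D replicate 14 or 15.

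Adhesion genes and surface receptors gave several of the largest rises. Of 54 integrin, selectin ligand and adhesion genes, 4 rose and none fell (7.41%), with a median of 0.09. Gcnt2, the enzyme that branches poly-N-acetyllactosamine chains, read 6.74, 6.56 and 6.96 in Scr and 11.52, 11.71 and 13.03 in shZeb1_C (5.33 ± 0.44, limma adjusted p = 0.00108). Jaml, a junctional adhesion molecule of leukocytes, read 8.22, 7.72 and 8.00 against 13.12, 12.62 and 13.71 (5.17 ± 0.32, limma adjusted p = 2.4e-04). Cd44, the hyaluronan receptor, went from 7.16, 6.85 and 7.17 to 10.20, 9.71 and 11.71 (3.48 ± 0.45, limma adjusted p = 0.0107), and Itgae, the integrin CD103 that binds E-cadherin, rose by 1.47 ± 0.26. Array 12 was the highest of its group for Gcnt2, Jaml and Cd44, but arrays 10 and 11 also lay above every Scr array. The tetraspanin Cd82 was 2.23 ± 0.43 higher and just missed the threshold (limma adjusted p = 0.0513). Without Scr replicate 9 the call of Cd44 was lost (limma adjusted p = 0.0562) and 2 of the 4 remained called, Gcnt2 and Jaml.

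Cytokine receptor chains gave 2 rises among 41 (4.88%, median 0.12). Tnfrsf1a, the main receptor for TNF, read 8.50, 7.34 and 7.92 in Scr and 10.76, 11.84 and 10.95 in shZeb1_C (3.26 ± 0.39, limma adjusted p = 0.00798). Il10rb, a chain shared by receptors of the IL-10 family, rose by 1.04 ± 0.19 (limma adjusted p = 0.0452), a call lost without any one of the 9 arrays. Il20ra, a chain of other receptors of that family, was called higher too but was not on the list of 41. It went from 6.37, 5.93 and 6.16 to 9.93, 10.73 and 9.30 (3.83 ± 0.39, limma adjusted p = 0.00252), with array 12 here the lowest of its group. Il27ra was 1.93 ± 0.44 higher (limma adjusted p = 0.101) and Il4ra had -1.05 ± 0.34 (limma adjusted p = 0.291), neither of which passed. Of 30 JAK-STAT and SOCS genes 0 were called by limma and 3 had an unadjusted p under 0.05. Their median was -0.15, with 0.03, -0.02 and -0.27 on arrays 10, 11 and 12.

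Gpr174, a receptor for lysophosphatidylserine encoded on the X chromosome, read 4.94, 6.05 and 5.95 in Scr and 9.49, 8.70 and 11.01 in shZeb1_C (4.09 ± 0.57, limma adjusted p = 0.0117). The related receptors P2ry10, P2ry10b and Gpr34, chosen after their values were seen, rose by 2.52 ± 0.33, 2.38 ± 0.23 and 2.45 ± 0.39 (limma adjusted p of 0.0109, 0.00175 and 0.0227). Gpr34 was already expressed in Scr, at 11.87, 11.08 and 10.80, while the other 3 were below or near the median level there. Only the call of P2ry10b held whichever array was left out. S1pr1, the receptor that guides lymphocytes out of tissues along sphingosine-1-phosphate, rose by 1.27 ± 0.23 (limma adjusted p = 0.0417). Cd200r2, a relative of the CD200 receptor, went from 8.10, 7.76 and 7.87 to 11.91, 10.73 and 13.60 (4.17 ± 0.73, limma adjusted p = 0.0372). That call was lost without any Scr replicate, shZeb1_C replicate 10 or 12 or shZeb1_D replicate 15.

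Regulators of the cytoskeleton and secretion were also among the rises. Lpxn, the paxillin relative leupaxin of haematopoietic cells, read 7.62, 8.36 and 8.78 in Scr and 12.20, 11.27 and 13.20 in shZeb1_C (3.97 ± 0.53, limma adjusted p = 0.0109), and Sytl3, an effector of Rab27 in granule secretion, rose by 3.41 ± 0.41 (limma adjusted p = 0.00798). Add3, adducin 3, which caps actin at the membrane skeleton, went from 7.05, 8.03 and 8.11 to 11.45, 11.74 and 10.69 (3.56 ± 0.39, limma adjusted p = 0.00433). Dock10, a guanine nucleotide exchange factor for small GTPases, rose by 2.09 ± 0.23 (limma adjusted p = 0.0045), 1 of 2 called members of a list of 72 actin and GTPase regulators (2.78%, median 0.02). The other, Syne4, a nuclear envelope protein that binds kinesin, fell by 2.73 ± 0.45 on the log2 scale (limma adjusted p = 0.029). Chosen after their values were seen, Ripor2 and Dst, the cytolinker dystonin, rose by 3.05 ± 0.30 and 2.14 ± 0.17 (limma adjusted p of 0.00227 and 9.9e-04). The calls of Lpxn, Add3, Dock10, Ripor2 and Dst held whichever array was left out, while that of Sytl3 was lost without Scr replicate 9 (limma adjusted p = 0.0532) and that of Syne4 without 7 of the 9 arrays (highest limma adjusted p = 0.0882).

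Of 40 ABC transporters and drug efflux genes, 3 rose and none fell (7.50%, median 0.05). Abcb1a and Abcb1b, the drug pumps known as P-glycoprotein, were well expressed in Scr: Abcb1a read 10.75, 10.14 and 10.86 there and 13.49, 13.69 and 13.37 in shZeb1_C (2.93 ± 0.25, limma adjusted p = 0.00122). Abcb1b went from 12.99, 12.32 and 12.95 to 14.55, 14.62 and 14.38 (1.76 ± 0.25, limma adjusted p = 0.0128). The shZeb1_C arrays of both lay close together, and as near copies the pair may share probes. Abcg3 rose by 1.91 ± 0.30, and the count was 1 without Scr replicate 9 or shZeb1_C replicate 11. Trpm1, a cation channel of retina and melanocytes, read 7.15, 7.61 and 7.04 in Scr and 11.64, 12.32 and 13.40 in shZeb1_C (5.19 ± 0.42, limma adjusted p = 9.9e-04). Of 53 channel and calcium genes, Orai3, a store-operated calcium channel, was the other call (-0.96 ± 0.18, limma adjusted p = 0.0438), one lost without 8 of the 9 arrays. Kcnmb1, a potassium channel subunit, rose by 4.09 ± 0.62 (limma adjusted p = 0.0186), a call lost without any Scr replicate or shZeb1_C replicate 11. The channels Trpa1 and Scn3a, on no list and chosen after their values were seen, rose by 1.53 ± 0.20 and 2.37 ± 0.45 (limma adjusted p of 0.0109 and 0.0489), and their calls were lost without 1 and 6 of the 9 arrays.

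Genes linked to oxygen and lipid signalling moved singly and not as lists. Arnt2, a partner of the hypoxia-inducible factors, read 7.10, 7.28 and 7.49 in Scr and 11.38, 11.43 and 12.71 in shZeb1_C (4.55 ± 0.35, limma adjusted p = 9.9e-04), and Adm, the peptide adrenomedullin, rose by 1.89 ± 0.32. They were the 2 calls among 54 glycolysis and hypoxia genes (3.70%), whose median was -0.18, with 0.10, -0.14 and -0.53 on arrays 10, 11 and 12. Ndrg1, a hypoxia target, was 2.10 ± 0.44 higher without passing (limma adjusted p = 0.0708). Plch1, a phospholipase C, rose by 3.34 ± 0.41 (limma adjusted p = 0.00879) while Plcd3, another phospholipase C, fell, so the 2 calls among 57 phosphoinositide and phospholipid enzymes (3.51%, median 0.13) had opposite directions. Mylip, the ligase that degrades the LDL receptor, rose by 1.87 ± 0.24, the only call among 31 cholesterol genes. Plin2, the coat of lipid droplets, fell by 1.71 ± 0.31 (limma adjusted p = 0.0437), the only call among 46 lipid droplet and fatty acid genes. The calls of Adm and Plin2 were lost without several arrays (highest limma adjusted p of 0.126 and 0.179), and that of Mylip without Scr replicate 9 (limma adjusted p = 0.0562).

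The deepest falls were in enzymes and in an Fc receptor. Sgpp1, the phosphatase that removes the phosphate of sphingosine-1-phosphate, read 11.87, 10.64 and 11.38 in Scr and 5.82, 4.56 and 6.09 in shZeb1_C. It went from well expressed to below the median level on every array, a fall of 5.81 ± 0.52 on the log2 scale (limma adjusted p = 0.00144), to 1.79% of Scr. Fcgr3, the low-affinity receptor for IgG known as CD16, read 12.19, 11.75 and 11.68 against 7.80, 7.87 and 7.66 (-4.10 ± 0.19, limma adjusted p = 5.6e-05). The shZeb1_C arrays of Fcgr3 lay close together, and array 12 did not stand apart. Ada, adenosine deaminase, which breaks down adenosine, read 11.12, 11.59 and 11.53 against 7.12, 7.35 and 7.49 (-4.09 ± 0.37, limma adjusted p = 0.00144), and Plcd3 11.00, 11.12 and 10.76 against 7.13, 7.01 and 7.05 (-3.90 ± 0.19, limma adjusted p = 5.6e-05). The 4 calls held whichever array was left out.

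**Figure D3:**
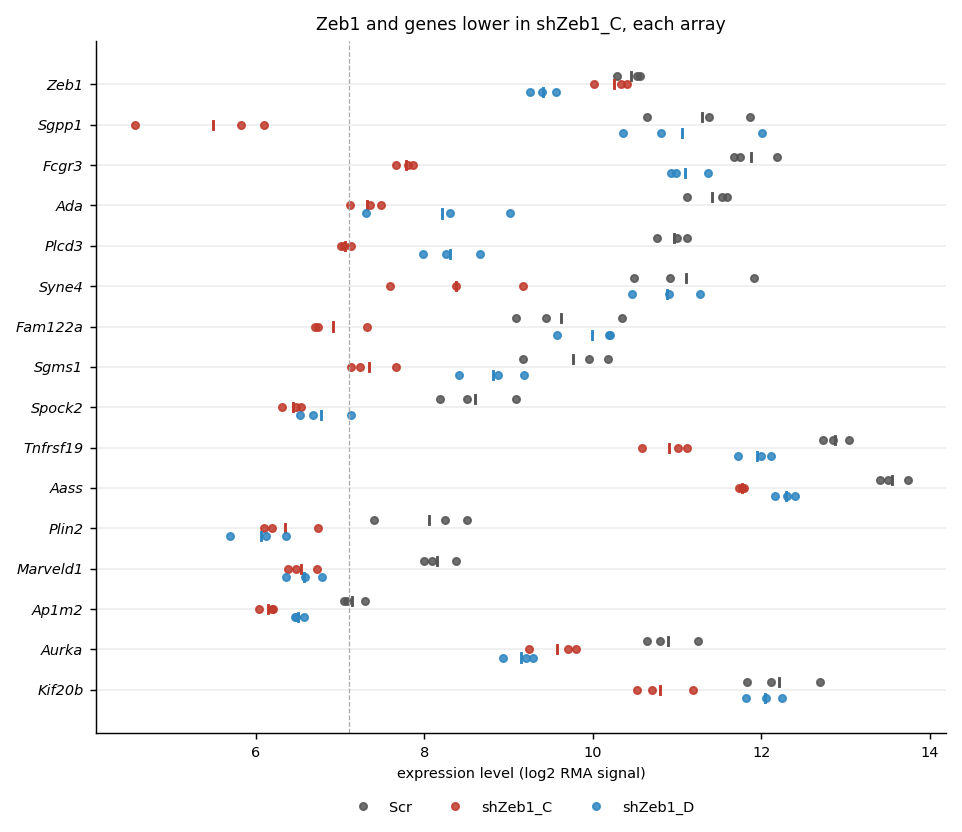
Level (log2 RMA signal, horizontal axis) of Zeb1 and of 15 genes called lower in shZeb1_C, with 1 point per array, a bar at each group's mean and the median level of all probe sets as a dashed line. Zeb1 overlaps between Scr and shZeb1_C, while Sgpp1 stands at 10.64 to 11.87 in Scr and 4.56 to 6.09 in shZeb1_C.

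Sphingolipid metabolism held calls of both directions. Of 47 genes measured, 2 rose and 3 fell (10.6%), and the median was 0.01. Besides Sgpp1, the falls were Sgms1, which makes sphingomyelin from ceramide in the Golgi, from 9.17, 10.18 and 9.95 to 7.66, 7.24 and 7.13 (-2.42 ± 0.30, limma adjusted p = 0.00872), and Samd8, a ceramide phosphoethanolamine synthase of the same family (-1.14 ± 0.18, limma adjusted p = 0.0206). The rises were the receptor S1pr1 and Smpdl3a, a phosphodiesterase of the acid sphingomyelinase family, which went from 12.49, 12.65 and 12.61 to 13.56, 13.94 and 13.61 (1.12 ± 0.15, limma adjusted p = 0.0109). Sptlc1, a subunit of the first enzyme of the pathway, was 1.00 ± 0.25 higher without passing (limma adjusted p = 0.133). Outside the list and chosen after their values were seen, Gm2a, the activator protein for ganglioside GM2, fell by 1.98 ± 0.36, and B4galt6, which makes lactosylceramide and was among the 25 largest falls, by 1.53 ± 0.25. Without Scr replicate 9, 1 of the 5 was called, Sgpp1, and the calls of Sgms1 and Smpdl3a then had limma adjusted p of 0.0562 and 0.0577. Without Scr replicate 7 or 8 or any shZeb1_C replicate, 1 rose and 2 fell. Sgpp1 and Sgms1 lie inside runs of neighbouring genes that shifted down, described below.

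Purine metabolism also held calls of both directions, 2 of 38 (5.26%, median 0.05). Slc28a2, a transporter that takes up purine nucleosides, read 11.72, 11.74 and 11.80 in Scr and 12.75, 12.94 and 12.76 in shZeb1_C (1.06 ± 0.16, limma adjusted p = 0.0182), a rise opposite to the fall of Ada. The direct test put Slc28a2 lower in shZeb1_D (-1.78, limma adjusted p = 0.00222). Adk, adenosine kinase, had -1.33 ± 0.29 and did not pass (limma adjusted p = 0.0827). The call of Slc28a2 was lost without any Scr replicate or without shZeb1_C replicate 10 or 11, with a highest limma adjusted p of 0.0789.

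Several other genes fell. Tnfrsf19, the TNF receptor family member TROY, read 13.04, 12.85 and 12.73 in Scr and 10.59, 11.01 and 11.12 in shZeb1_C (-1.97 ± 0.19, limma adjusted p = 0.00175). Aass, which begins lysine breakdown, went from 13.41, 13.51 and 13.74 to 11.74, 11.80 and 11.77 (-1.78 ± 0.14, limma adjusted p = 9.9e-04), and Spock2, a matrix proteoglycan, from 8.51, 8.19 and 9.09 to 6.31, 6.54 and 6.47 (-2.16 ± 0.25, limma adjusted p = 0.00596). Each of these had shZeb1_C arrays close together, below every Scr array, and a call that held whichever array was left out. Tle4, a Groucho corepressor, fell by 1.58 ± 0.24 (limma adjusted p = 0.0192) and Emid1 by 1.61 ± 0.21. Of 42 genes on the NF-kB and TNF superfamily list, Tnfrsf19 was the only call, and Rel, an NF-kB subunit, was 1.32 ± 0.28 higher (limma adjusted p = 0.0777). The family members Tnfrsf9, Tnfrsf1a and Tnfsf10 were counted on other lists, given above, and were called higher.

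Epithelial and mesenchymal genes, the classical readout of Zeb1, gave few calls. Of 48 epithelial genes none rose and 2 fell (4.17%), Ap1m2 (-1.0 ± 0.14, limma adjusted p = 0.0112) and Marveld1 (-1.62 ± 0.18, limma adjusted p = 0.00433), a membrane protein of the MARVEL family, and the median was 0.01. Only 12 of the 48 lay above the median level. Cdh1, E-cadherin, stood at 6.57, 6.31 and 6.30 in Scr and 6.30, 6.55 and 6.74 in shZeb1_C (0.14 ± 0.20, limma adjusted p = 0.989). Of 60 mesenchymal and matrix genes, 1 rose and 2 fell (5.0%): Abi3bp, a matrix-binding protein, went from 5.49, 5.48 and 4.87 to 9.05, 10.19 and 9.96 (4.45 ± 0.35, limma adjusted p = 9.9e-04), while Spock2 and Agrn, agrin, fell. The list's median of 0.21 was 0.52 on array 12 but -0.06 and -0.03 on arrays 10 and 11, and 0.00 without array 12. S100a4 is an example, at 7.87, 8.57 and 7.43 in Scr and 10.56, 9.34 and 14.80 in shZeb1_C (3.61 ± 1.14, limma adjusted p = 0.282). Vim, vimentin, differed by 0.50 ± 0.28 (limma adjusted p = 0.731). The call of Ap1m2 was lost without Scr replicate 9 or shZeb1_C replicate 11 (highest limma adjusted p = 0.062) and that of Agrn without Scr replicate 9 (0.0584 in limma).

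Corepressors of Zeb1 did not pass the test. Of 19 genes of that list, Zeb1 included, 0 were called by limma and 3 had an unadjusted p under 0.05, with a median of -0.03. Smarca4, the chromatin remodeller BRG1, read 14.33, 14.25 and 14.58 in Scr and 13.69, 13.76 and 13.54 in shZeb1_C (-0.72 ± 0.14, limma adjusted p = 0.0556), and it lies in the run of chromosome 9 described below. Kdm1a, the demethylase LSD1, had -0.42 ± 0.16 (limma adjusted p = 0.458).

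The title of the series names T cell activity and Th17 expansion, and a few cytokine and enzyme genes were looked up for it, beside the checkpoint genes given above. Arg1, arginase 1, read 10.65, 12.15 and 11.25 in Scr and 9.19, 9.86 and 7.49 in shZeb1_C. The groups did not overlap, but the arrays within each spread widely (-2.50 ± 0.69, limma adjusted p = 0.192). Tgfb1 differed by -0.37 ± 0.28 (limma adjusted p = 0.885) and Tnf by -0.28 ± 0.35 (limma adjusted p = 0.969). Il6, Il23a, Arg2 and Mmp9 stayed under the median level on each of the 6 arrays. The 31 Th17-related cytokines had a median of -0.02, 0 calls by limma and 3 at an unadjusted p under 0.05, against 1717 of all 19572 probe sets. Of 41 genes on the TGF-beta and BMP list 0 were called by limma and 7 had an unadjusted p under 0.05. Among them, Tgfbr3, betaglycan, was 1.47 ± 0.29 higher (limma adjusted p = 0.0547), and Id2, an inhibitor of helix-loop-helix factors, read 7.38, 8.30 and 7.23 against 9.88, 8.25 and 11.76 (2.33 ± 0.74, limma adjusted p = 0.291). Acvr1c, a TGF-beta superfamily receptor outside that list and chosen after its values were seen, was called higher, by 1.57. That call was lost without 7 of the 9 arrays. Xcl1, the chemokine lymphotactin of activated T and NK cells, was 3.93 ± 0.79 higher (limma adjusted p = 0.061), with array 12 at 13.57 against 10.97 and 9.89.

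Of 59 mitosis genes, 48 were below 0 and the median was -0.26, with -0.15, -0.28 and -0.44 on arrays 10, 11 and 12. Only Aurka, the mitotic kinase, from 10.80, 10.64 and 11.25 to 9.80, 9.70 and 9.24 (-1.32 ± 0.22, limma adjusted p = 0.0271), and the kinesin Kif20b (-1.41 ± 0.26, limma adjusted p = 0.0438) were called (3.39%). Both lie in shifted runs of genes, as do Kif11 (-1.27 ± 0.25, limma adjusted p = 0.0582) and Ube2c (-1.19 ± 0.23, limma adjusted p = 0.0531). With the probe sets of those runs left out, no mitosis gene was called by limma and the median of the rest was -0.23. The calls of Aurka and Kif20b were lost without any one Scr replicate or without shZeb1_C replicate 10 or 11. Cep55, a cytokinesis gene outside the list and chosen after its values were seen, was also called lower (-1.33). Its call was lost only without Scr replicate 9, and it too lies in a shifted run. Of 54 replication genes 0 were called by limma, 4 had an unadjusted p under 0.05 and the median was -0.12. Of 61 ribosome biogenesis genes 0 were called by limma and 6 had an unadjusted p under 0.05, although 56 lay below 0 (median -0.26), with -0.08, -0.17 and -0.63 on arrays 10, 11 and 12, and -0.13 without array 12. The 57 cytosolic ribosomal proteins and 74 respiratory chain genes had medians of -0.05 and -0.10 and 0 calls by limma, with 1 and 3 at an unadjusted p under 0.05. Subtracting array medians moved the median of all genes by -0.07.

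Stress, survival and lysosomal genes mostly did not pass. Of 45 p53 and apoptosis genes the only call was Casp4, the inflammatory caspase-11, which went from 6.91, 6.62 and 6.95 to 9.10, 9.94 and 10.89 (3.15 ± 0.43, limma adjusted p = 0.0109). The survival factors Bcl2a1b, Bcl2a1d and Bcl2a1a, near copies that may share probes, were 3.48 ± 0.83, 3.07 ± 0.60 and 2.87 ± 0.76 higher, with limma adjusted p of 0.12, 0.0556 and 0.166, and array 12 was the highest for each. The median of 43 amino acid and integrated stress response genes was -0.12, with 0.10, 0.04 and -0.65 on arrays 10, 11 and 12, and 0.06 without array 12. Nupr1, a stress-induced nuclear protein of that list, was 1.93 ± 0.38 higher (limma adjusted p = 0.0581). Ctsz, cathepsin Z, had -1.29 ± 0.25 (limma adjusted p = 0.0513), in a list of 46 lysosomal genes with 0 calls by limma and 7 at an unadjusted p under 0.05. Naip5, which senses bacterial flagellin, rose by 0.79 ± 0.15 (limma adjusted p = 0.0495), a call lost without any one of the 9 arrays, and was 1 of 36 nucleic acid and Toll-like sensing genes. The 58 myeloid genes had 0 calls by limma, 5 at an unadjusted p under 0.05 and a median of 0.08. Among them Ncf4, an NADPH oxidase subunit, was 3.31 ± 0.70 higher (limma adjusted p = 0.0754) while Lst1 had -2.80 ± 0.87 (limma adjusted p = 0.268).

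**Figure D4:**
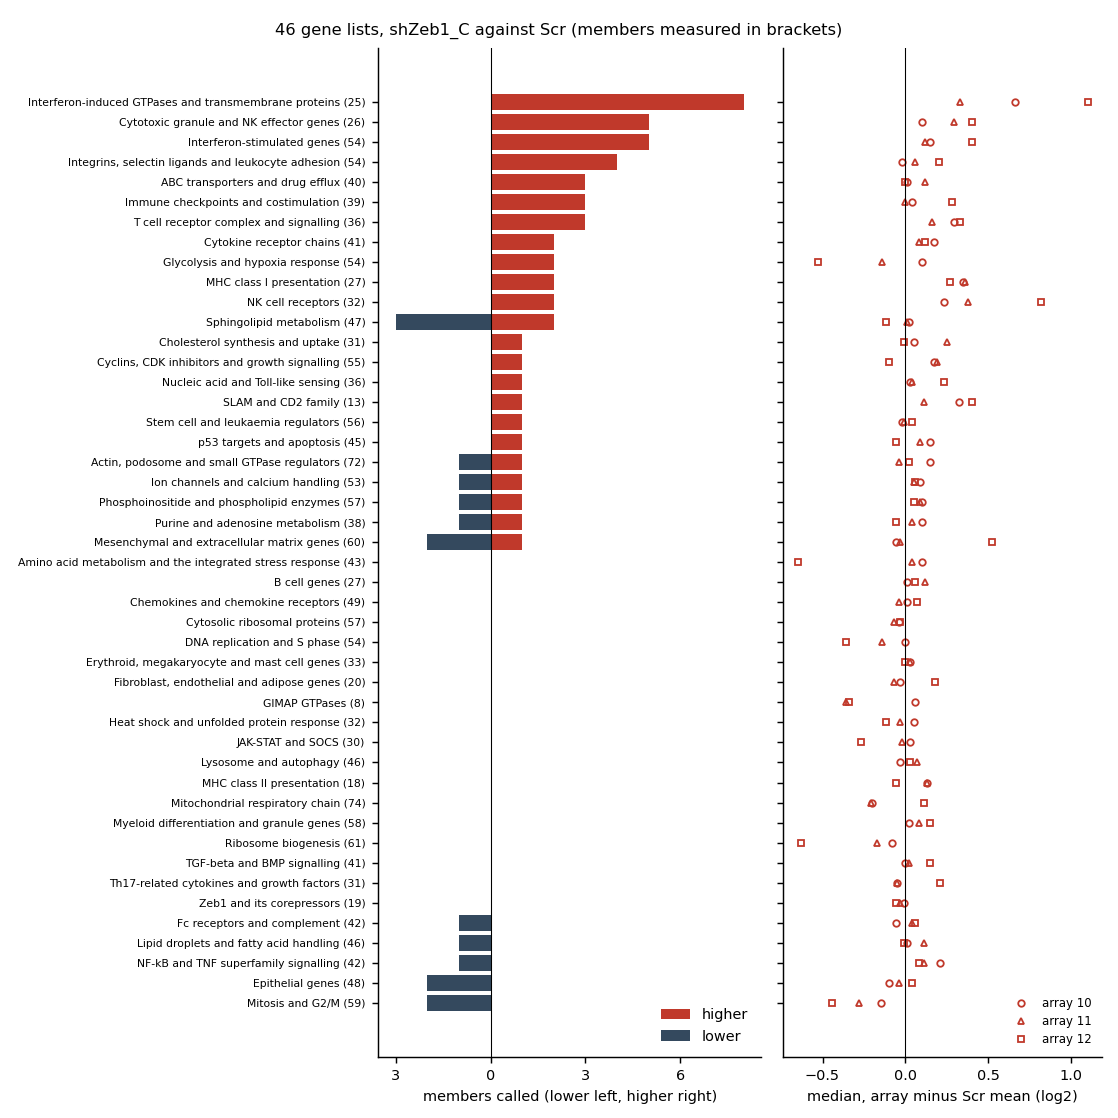
For each of 46 gene lists (rows, members measured in brackets), the left panel counts members called lower (to the left) and higher (to the right) and the right panel gives the list's median difference of each shZeb1_C array from the Scr mean (log2). Interferon-induced GTPases have 8 of 25 members called higher, and array 12 (squares) lies apart for ribosome biogenesis (-0.63) and for amino acid genes (-0.65).

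Many of the falls lay beside each other on chromosomes. A running median over 51 neighbouring genes above the median level passed 0.30 in size in 6 runs of at least 40 genes. On chromosome 2 from Arhgap40 to Polr3k, 136 genes had a median of -0.69, with 90.4% below 0. On chromosome 9 from Cwf19l2 to Mindy2, 298 genes had a median of -0.42, on chromosome 12 from Id2 to Sel1l 187 genes -0.54, and on chromosome 19 from Abhd17b to Aldh18a1 59 genes -0.77. Chromosome 13 from Nup153 to Ptch1 was the only run that shifted up, 91 genes with a median of 0.42. The run on chromosome 10, 42 genes with a median of -0.34, rested on array 12, at -0.64 against -0.14 and -0.20. In the other 5 runs each of the 3 arrays passed 0.30 in size. Arrays 10, 11 and 12 stood at -0.69, -0.64 and -0.53 for chromosome 2 and -0.41, -0.53 and -0.54 for chromosome 12. They stood at -0.37, -0.44 and -0.33 for chromosome 9, -0.83, -0.76 and -0.56 for chromosome 19 and 0.50, 0.33 and 0.54 for chromosome 13. In shZeb1_D, against the same Scr arrays, the medians were -0.70 on chromosome 2 and -0.47 on chromosome 9 but -0.06 on chromosome 12, -0.03 on chromosome 19 and 0.23 on chromosome 13.

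**Figure D5:**
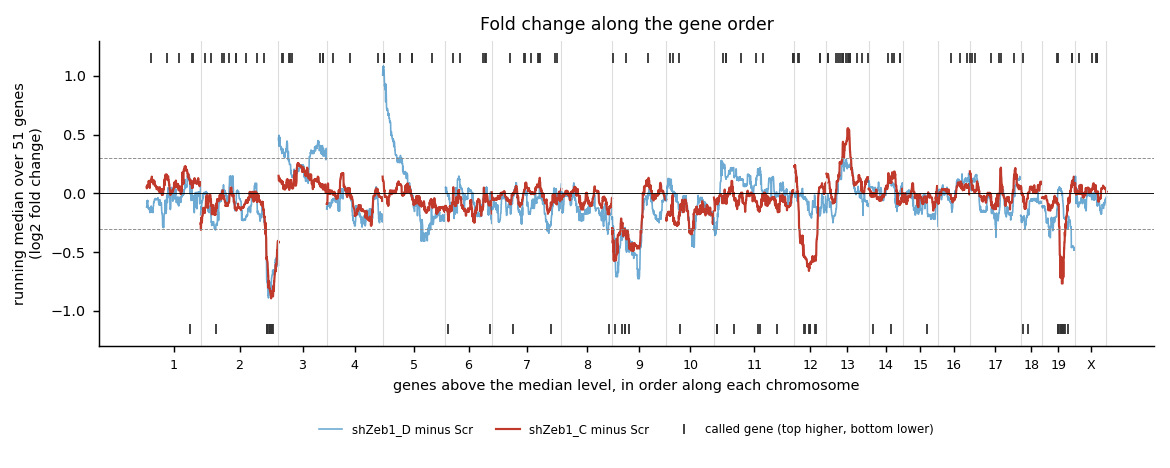
Running median of the log2 fold change over 51 genes (vertical axis) along genes above the median level in chromosome order (horizontal axis, chromosomes 1 to 19 and X), for shZeb1_C (red) and shZeb1_D (blue) against the same Scr arrays, with called genes as ticks and dashed lines at 0.30 and -0.30. Chromosomes 12 and 19 dip in shZeb1_C, where the run medians are -0.54 and -0.77, against -0.06 and -0.03 in shZeb1_D.

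The runs held 1594 probe sets, 8.1% of all, and 30 of the 56 genes called lower (53.6%) against 11 of the 129 called higher (8.5%). As the runs were found from the same fold changes, an excess of falls inside them is built in. With a limit of 0.25 they held 30 of the 56 falls, and with 0.40 they held 27. Ada, Pkig, Tomm34, Zfp64 and Aurka lie in the run of chromosome 2, Sgpp1 and Gphn in that of chromosome 12, Fam122a, Sgms1, Rcl1, Kif20b and Cep55 in that of chromosome 19, and Ap1m2 and Fbxl12 in that of chromosome 9. Sgpp1, Ada and Sgms1 fell by much more than the medians of their runs. Fcgr3, Plcd3, Spock2, Tnfrsf19, Aass and Marveld1 lie outside the runs. Among the rises, Jaml and Casp4 lie in the run of chromosome 9 that shifted down and Ctla2a in that of chromosome 13. With the probe sets of the runs left out, 124 genes were called, 104 higher and 20 lower. DNA copy number was not analysed here.

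Hairpin D was compared with the same Scr arrays, so the direct test between the hairpins is given. Of the 129 rises, 51 differed between the hairpins in the direct test, and of the 56 falls 13 did (limma adjusted p under 0.05, called for 0.848% of all probe sets). The shZeb1_C arrays chose these genes and also enter that test. Cd48, as shZeb1_D minus shZeb1_C, had -5.12 (limma adjusted p = 0.00665), with shZeb1_D arrays at 7.64, 9.41 and 8.00. Lcp2 had -4.39 (limma adjusted p = 8.4e-04), and its shZeb1_D arrays, at 7.66, 7.84 and 7.27, lay below every Scr array. Ifitm2 had -6.87 (limma adjusted p = 0.00881), with shZeb1_D arrays at 7.48, 11.03 and 8.12. Nkg7, Gzmb, Klrc1, Tnfrsf9, Pdcd1, Gcnt2, Arnt2, Lax1, Abi3bp, Plch1 and Ddx58 were also lower in shZeb1_D in the direct test. Nav2, a cytoskeletal protein of growing neurites chosen after its values were seen, read 12.08, 11.79 and 12.47 in Scr, 14.56, 14.54 and 14.83 in shZeb1_C and 9.51, 10.62 and 9.15 in shZeb1_D, so the hairpins lay on opposite sides of the control.

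Other called genes did not pass the test between the hairpins, which does not show that the hairpins acted alike. Trpm1 differed by -0.58 ± 0.42 (limma adjusted p = 0.64), with shZeb1_D arrays at 12.03, 12.26 and 11.32. Abcb1a differed by -0.41 ± 0.25 (limma adjusted p = 0.57), Gbp7 by -0.27 ± 0.18 (limma adjusted p = 0.617) and Ada by 0.89 ± 0.37 (limma adjusted p = 0.39). Mndal and Mylip also did not pass. Jaml and Gbp4 lay between, with shZeb1_D minus Scr at 3.22 and 1.40 and shZeb1_D minus shZeb1_C at -1.95 and -1.99 (limma adjusted p of 0.0283 and 0.00331 for the latter). Of the falls, Sgpp1 and Fcgr3 were 5.57 and 3.32 higher in shZeb1_D than in shZeb1_C (limma adjusted p of 0.00247 and 4.0e-04), with Sgpp1 at 12.01, 10.36 and 10.81 there, overlapping Scr.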

How the data were processed

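RMA and the Transcriptome Analysis Console are named in the submitters' processing notes, neither with a version. The values the authors deposited are RMA signals on a linear scale that lack their decimal point. For each of the 199854 cells the point was set where log2 of the signal is a multiple of 0.01 (tolerance 1e-06 steps, with 0 cells ambiguous). Recovered log2 values ran from 3.26 to 17.44. No genome build for the arrays is given in the sources used here. The platform annotation gave 1 symbol for 19572 of 22206 probe sets, all found by Entrez ID in RefSeq's GRCm38.p6 table. The 2634 unnamed probe sets were left out, and Zeb2 was not analysed here.

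limma 3.58.1 in R 4.3.3 fitted a mean per group over all 9 arrays, with empirical Bayes moderation and Benjamini-Hochberg adjustment over the 19572 probe sets. Adjusted p-values under 0.05 were called. The fit and the decoding were tested on simulated data. A gene on a list was counted once, by its brightest probe set. Named genes were Zeb1, the 25 largest rises and the 25 largest falls among called genes separated on all 6 arrays and above the median level (predicted genes left out), every called list member, up to 4 uncalled members per list and its 3 brightest, and 11 genes tied to the title. Others are said to be chosen after their values were seen. Members and the 46 lists were chosen with earlier results of these data known. Alternatives covered normalization, dim probe sets, the variance prior, array weights, thresholds, the arrays in the fit and the promoter window. The number of arrays limits the precision. Exact intervals of promoter shares cover counting error only.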

Additional observations from a re-analysis of the deposited data

How the results depend on the processing

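No paired analysis was run, because the groups share no replicate number and the labels do not say if arrays of different groups were made in parallel. The 185 calls (129 higher, 56 lower) became 572 (327 and 245) with array weights and 316 (200 and 116) at an adjusted p under 0.10. With only the 6 arrays of Scr and shZeb1_C, 33 genes were lower, and without probe sets in shifted runs, an alternative added after the data were seen, 20 were. Leaving out 1 array at a time gave 43 to 214 calls, 33 to 145 higher and 10 to 69 lower, the lowest without Scr replicate 9. Other settings stayed within 1.5 times: 173 calls above the median level only, 181 quantile normalized again, 177 with array medians subtracted, 152 with limma trend and 174 with robust empirical Bayes. The share of calls that were higher was 69.7%, and 57.2% with array weights. Zeb1 in shZeb1_C against Scr stayed uncalled, at -0.29 to -0.08, in every setting. Among uncalled genes, the sign of Tnf turned without Scr replicate 8 (range over arrays left out -0.53 to 0.09), as did that of Cd3e (-0.13 to 0.6), and that of Cd3g turned with array medians subtracted (-0.03) and without shZeb1_C replicate 10 (-0.04). The cause of these changes was not tested.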
